A study of Mus musculus with 2 samples.

Results

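The 37 genes described here encode the enzymes of glycolysis, the pentose phosphate pathway and the pyruvate dehydrogenase complex, with lactate dehydrogenase and the kinases that regulate these routes. They were taken from a list of symbols, and each was found once among the 43346 annotated genes of the files, 21461 of which are nuclear protein-coding genes. The cells were granulocyte-monocyte progenitors, the bone marrow precursors of neutrophils and monocytes, taken as primary cells from male mice of strain C57BL/6J at an age of 5 to 6 weeks. Total RNA, 100 ng per library and depleted of ribosomal RNA, was sequenced from 2 biological replicates of this single group. With a single condition, the data give gene levels, contrasts between enzymes of the same step within a library, and differences between the libraries. The labels tie both libraries to 1 donor record, so part of the SD over them may be technical, and no test between groups could be made.

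Glycolysis splits glucose into pyruvate in the cytosol and yields ATP. The pentose phosphate pathway leaves glycolysis at glucose-6-phosphate, yields NADPH in its oxidative branch, and interconverts sugar phosphates, ribose-5-phosphate among them, in its non-oxidative branch. Pyruvate is either reduced to lactate or carried into mitochondria, where the pyruvate dehydrogenase complex turns it into acetyl-CoA. Many of these steps have several isozymes encoded by separate genes, and neutrophils, which these progenitors produce, are known for their reliance on glycolysis and for using NADPH in the oxidative burst.

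The gene for muscle pyruvate kinase, Pkm, makes alternative forms of the last enzyme of glycolysis by including either exon 9 (M1, typical of adult muscle and brain) or exon 10 (M2, typical of proliferating cells). The exons are shown because the split of Pkm transcripts in these cells rests on them. Both lie in coding sequence on the plus strand of chromosome 9 (mm10), exon 9 at chr9:59675029-59675195 and exon 10 at chr9:59675568-59675734. Capitals mark the bases at which the exons differ when set side by side.
Pkm exon 9 (M1): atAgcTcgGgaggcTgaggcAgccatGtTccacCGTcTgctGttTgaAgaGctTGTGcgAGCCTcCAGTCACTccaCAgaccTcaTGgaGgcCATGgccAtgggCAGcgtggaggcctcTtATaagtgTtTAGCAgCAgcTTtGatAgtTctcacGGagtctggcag
Pkm exon 10 (M2): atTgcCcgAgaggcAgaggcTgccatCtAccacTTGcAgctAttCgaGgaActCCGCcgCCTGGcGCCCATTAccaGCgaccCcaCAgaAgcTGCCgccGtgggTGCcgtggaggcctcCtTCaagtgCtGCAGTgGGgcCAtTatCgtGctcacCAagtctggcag
Each exon is 167 nt long, and 64 bases differ, so the identity is 61.7%.

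The M2 form made up nearly all Pkm RNA in both libraries. The files hold 1 transcript of each form, each 2432 nt long, so the same length divides both. TPM (transcripts per 1000000, a level per length) of the M2 transcript was 178 in replicate 1 and 214 in replicate 2. That of the M1 transcript was 9.90 and 8.90. The M2 share of Pkm TPM was therefore 94.7% and 96.0%, with a mean of 95.4% ± 0.910 (SD, n = 2). The deposited credibility intervals of the M1 transcript, as a share of Pkm TPM, ran from 4.62% to 5.88% in replicate 1 and from 3.37% to 4.58% in replicate 2. They nearly touch, and only reads over the 167-nt exon separate the forms, so a difference between the libraries in this share was not established. The M1 transcript was assigned 3217 and 2207 expected counts, and the lower bounds of its deposited credibility intervals were 8.68 and 7.52 TPM. Such bounds can lie above 0 without any counts. For the enolase gene Eno2, over all its transcripts, they were 0.085 and 0.118 TPM. For a single transcript at 0 counts, Pdk2-201 in replicate 1, the bound was 1.23e-07 TPM. The bounds of the M1 transcript were higher than these. A bound above 0 therefore does not by itself establish that the M1 form was present.

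Most of the 37 genes were expressed, and several were among the most abundant mRNAs of these cells. In both libraries, 33 of the 37 were at or above 1 TPM, where 40.8% of all nuclear protein-coding genes reached that level. At or above 10 TPM in both were 24 of the 37, against 14.3% of nuclear protein-coding genes. At or above 100 TPM in both were Gapdh, Pkm, Gpi1, Aldoa, Tkt and Taldo1, a level reached by 1.24% of such genes. Among the 1000 nuclear protein-coding genes of highest TPM, which are 4.66% of those genes, 17 of the 37 were found in replicate 1 and 15 in replicate 2. The median level of the 37 was 24.9 TPM in replicate 1 and 28.2 in replicate 2, where nuclear protein-coding genes at or above 1 TPM in both libraries had medians of 6.47 and 7.74. Together they held 0.981% and 0.907% of the TPM of nuclear protein-coding genes (mean 0.944% ± 0.0522, SD, n = 2). In bulk RNA, a gene's level per cell and the number of cells that express it cannot be told apart.

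**Figure D1:**
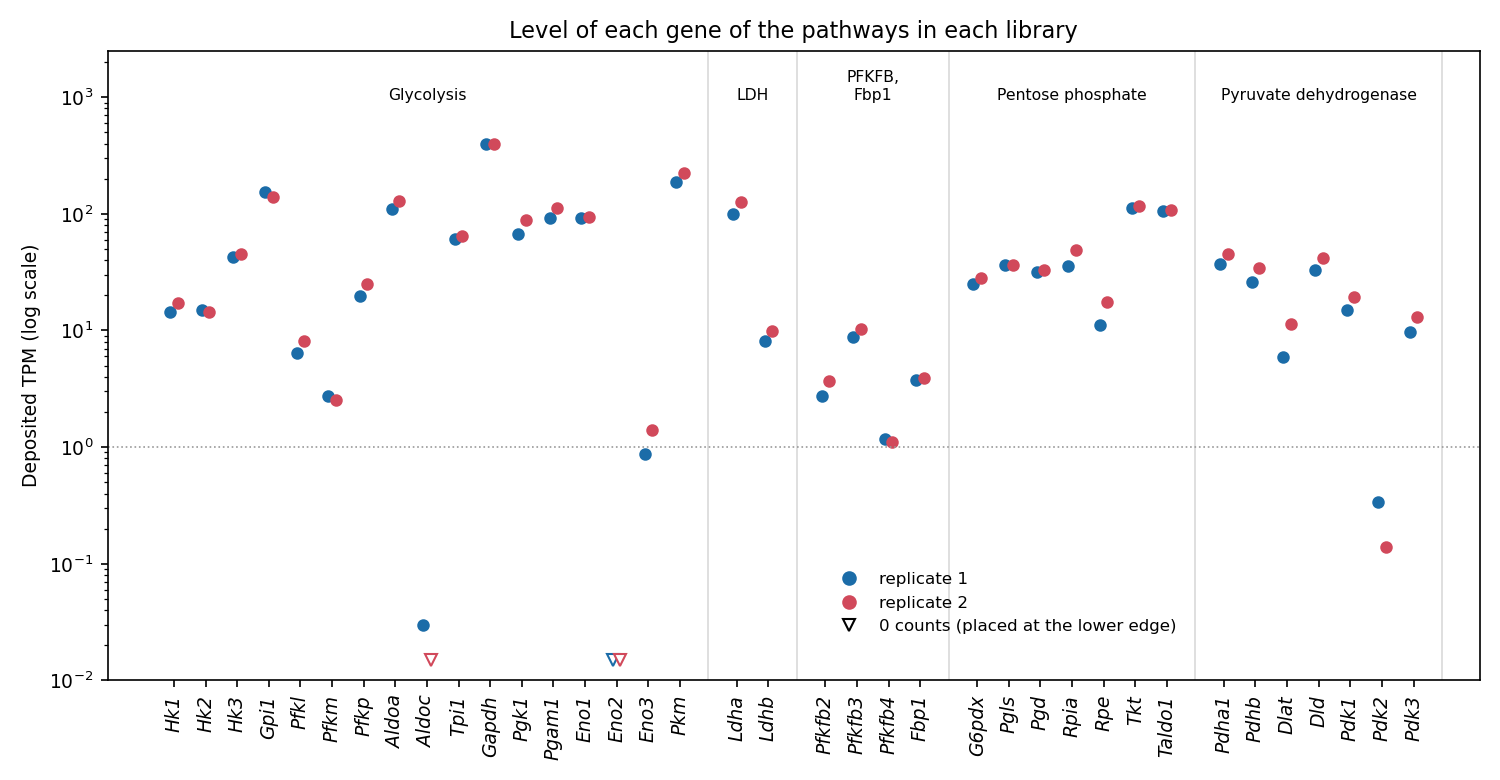
Deposited TPM (log axis) of each of the 37 genes in replicate 1 (blue) and replicate 2 (red), ordered along the pathways; LDH is lactate dehydrogenase, PFKFB the kinases that make fructose-2,6-bisphosphate, and open triangles mark 0 counts. Of the 37 genes, 33 lie above the dotted line at 1 TPM in both libraries, and Gapdh lies highest.

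Some values of the whole series bear on these levels. The libraries held 49473848 and 44260902 expected counts, and nuclear protein-coding genes held 19.07% and 22.84% of all TPM, so deposited TPM of such genes was generally higher in replicate 2. The marker lists below were chosen with earlier results of these data known, so their counts do not test which cells were present. All 12 marker genes listed for granulocyte-monocyte progenitors were at or above 1 TPM in both libraries, where 40.8% of nuclear protein-coding genes were. Their sum was 4988 and 4661 TPM. Of the 8 erythroid markers, 1 reached 1 TPM in both, and their sum was 1.73 and 4.30 TPM. Of the 5 B cell, 5 T cell, 5 muscle and 4 adipocyte and liver markers none did, and 4, 3, 4 and 2 of them were at 0 in both. Of the 6 stromal and endothelial markers 1 reached it, and 3 were at 0.

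Hexokinases trap glucose in the cell as glucose-6-phosphate, and Hk3, the form typical of myeloid cells, was the leading one. Hk3 was at 42.9 TPM in replicate 1 and 45.6 in replicate 2. Hk1, the widely expressed form, was at 14.3 and 17.2 TPM, and Hk2, the form of insulin-sensitive tissues and tumours, at 15.0 and 14.5. In both libraries Hk3 lay above Hk1 and Hk2 together, with 59.4% and 58.9% of hexokinase TPM. On the log2 scale Hk3 exceeded Hk1 by 1.5 ± 0.13 and Hk2 by 1.58 ± 0.10 (SD, n = 2). Hk1 and Hk2 exchanged order between the libraries on TPM. Their order depended on the unit, since Hk2 had more counts in both libraries (7945 and 6545 against 6388 and 6120), while counts divided by the length of the longest coding transcript put Hk1 above Hk2 in both (69.1 and 71.5 against 66.0 and 58.6). Hkdc1, a hexokinase-like gene, had 0 counts. Hk3 spans chr13:55005985-55021385.

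The isomerase Gpi1, which turns glucose-6-phosphate into fructose-6-phosphate, was at 154 and 138 TPM. The committed step that follows, phosphofructokinase, had the lowest summed level of the 10 glycolytic steps, at 29.0 and 35.9 TPM. Pfkp, the platelet-type subunit, led it at 19.9 and 25.3 TPM. Pfkl, the liver-type subunit, was at 6.46 and 8.17 TPM, and Pfkm, the muscle-type subunit, at 2.72 and 2.52. The order Pfkp, Pfkl, Pfkm was the same in both libraries, and Pfkp held 69.3% ± 1.32 of the summed TPM. Pfkp exceeded Pfkl by 1.62 ± 0.0054 on the log2 scale of TPM. That margin was smaller, 1.08, when counts were divided by the length of each gene's longest coding transcript.

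Aldolase cleaves fructose-1,6-bisphosphate, and Aldoa, the form of muscle and red cells, made up nearly all of it. Aldoa was at 110.2 TPM in replicate 1 and 128 in replicate 2. Aldoc, the brain form, had 6 counts in the first library and 0 in the second. Tpi1, the triosephosphate isomerase, was at 60.5 and 64.7 TPM.

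In the second part of glycolysis, which yields ATP, a single gene of each family carried the step. Gapdh, the glyceraldehyde-3-phosphate dehydrogenase, was at 397 and 399.7 TPM, the highest of the 37 genes in both libraries. Pgk1, the X-linked phosphoglycerate kinase, was at 66.6 and 88.7 TPM, and Pgam1, the brain-type phosphoglycerate mutase, at 92.6 and 112. Eno1, the widely expressed enolase, was at 92.6 and 94.6 TPM. The other enolases were far lower. Eno3, the muscle enolase, had 131 and 193 counts and was at 0.88 and 1.39 TPM, so it crossed 1 TPM only in replicate 2. Eno2, the neuronal enolase, had 0 counts in both libraries. Pkm was at 188 and 223 TPM, second to Gapdh in both.

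The testis, muscle or neuronal counterparts Gapdhs, Pgk2, Pgam2 and Eno2 had 0 counts in both libraries. With 0 counts observed, up to 3 counts per library remain possible, and the files give a credibility interval for such genes. Folds of deposited TPM against the higher of these limits are lower bounds that cover estimation and counting error only. They do not cover the length used for each gene, on which the level of Gapdh depended, as described below. Gapdh was at least 7062-fold higher than the testis form Gapdhs in replicate 1 and at least 5191-fold higher in replicate 2. Pgk1 was at least 4527-fold and 4554-fold higher than the testis form Pgk2, and Pgam1 at least 2950-fold and 2626-fold higher than the muscle form Pgam2. The bounds were lowest for Eno1, at least 317-fold and 228-fold higher than Eno2, whose deposited intervals reached up to 0.293 and 0.415 TPM. Pklr, the pyruvate kinase of liver and red cells, was not at 0 but had only 19 and 31 counts, and Pkm exceeded it by 11.5 ± 0.53 on the log2 scale of TPM.

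**Figure D2:**
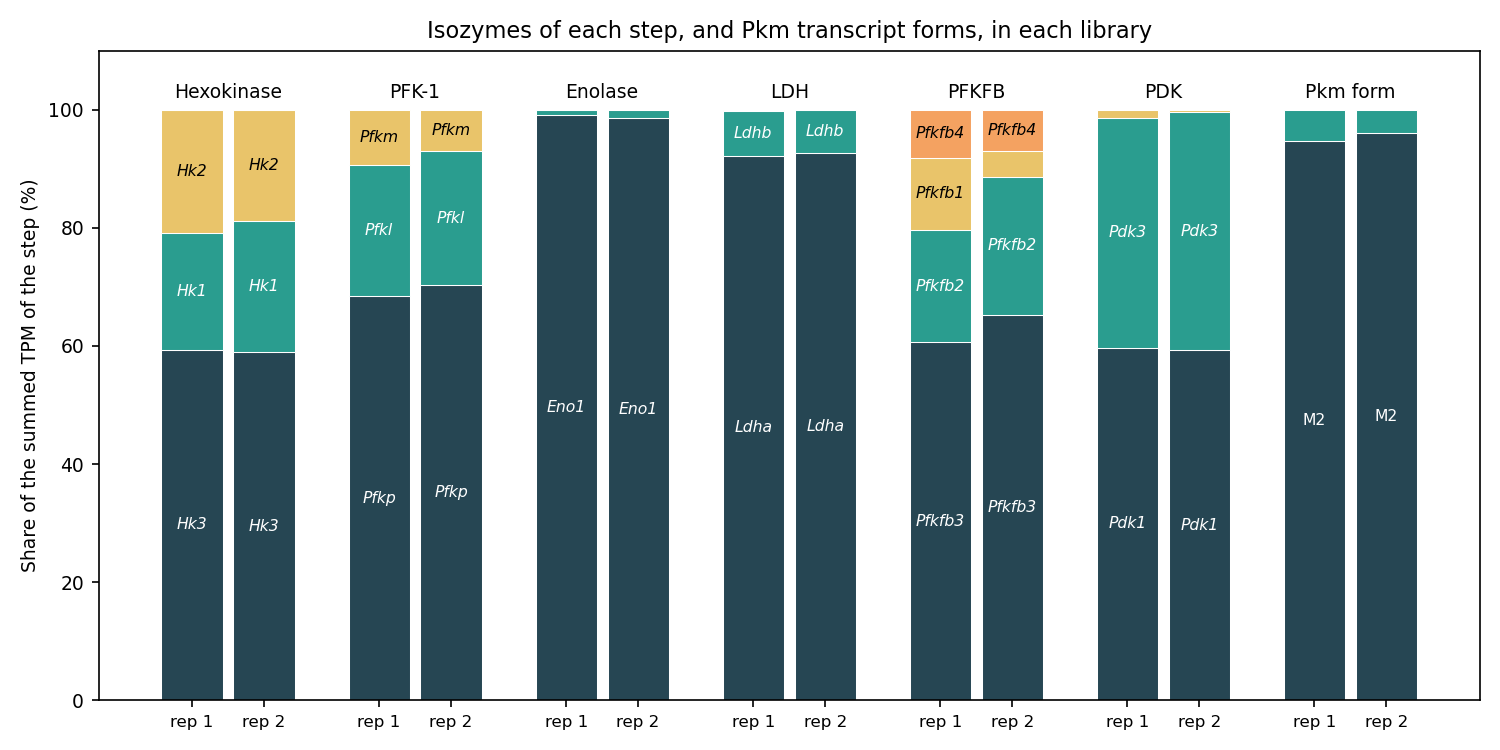
Share of summed TPM (percent, axis from 0 to 100) held by each isozyme of 6 steps and by each Pkm form, with 1 stacked bar per library; PFK-1 is phosphofructokinase and PDK pyruvate dehydrogenase kinase. The same gene forms the largest block of each step in both libraries, among them Hk3 at 59.4% and 58.9% and Ldha at 92.2% and 92.7%; blocks too thin for a name are Eno3, Ldhc, Pfkfb1 in replicate 2, Pdk2 and M1.

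The rank of Gapdh above Pkm depended on which Gapdh transcript was credited. The transcript with the largest TPM was Gapdh-206, a 565-nt model of class retained intron at chr6:125161853-125162527 that covers the end of the gene and shares 480 nt with the longest coding transcript, Gapdh-203. It held 71.0% of Gapdh TPM in replicate 1 and 66.3% in replicate 2. The stretch that sets it apart from the mRNA is shown, since reads from its intron would fall on no coding transcript of the gene. The window, chr6:125162344-125162527 on the minus strand (mm10), has the 84 nt of the retained intron in capitals between 50 coding bases on either side.
Gapdh-206: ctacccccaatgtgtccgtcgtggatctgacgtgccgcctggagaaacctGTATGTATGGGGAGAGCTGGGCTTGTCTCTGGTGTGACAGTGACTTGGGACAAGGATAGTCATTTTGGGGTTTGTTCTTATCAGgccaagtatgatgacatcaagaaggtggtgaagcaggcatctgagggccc
Over all Gapdh transcripts shorter than 1000 nt, the share was 76.4% and 75.7% of TPM but 49.98% and 46.1% of counts. When the counts of each gene were divided instead by the effective length of its longest coding transcript and scaled to 1000000 over nuclear protein-coding genes, here called the full-length level, Gapdh was at 1197 and 993. Pkm was at 1199.5 and 1185 on that scale. The genes were then close in replicate 1, and Pkm was higher in replicate 2, whereas deposited TPM put Gapdh above Pkm in both. Both scales keep the counts on Gapdh-206 within Gapdh. The coding transcripts Gapdh-203, Gapdh-201 and Gapdh-202 were at 44.3, 31.3 and 14.2 TPM in replicate 1. In replicate 2 they were at 67.1, 0.04 and 25.7 TPM, and Gapdh-209, also coding, was at 0.34 and 0.70.

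**Figure D3:**
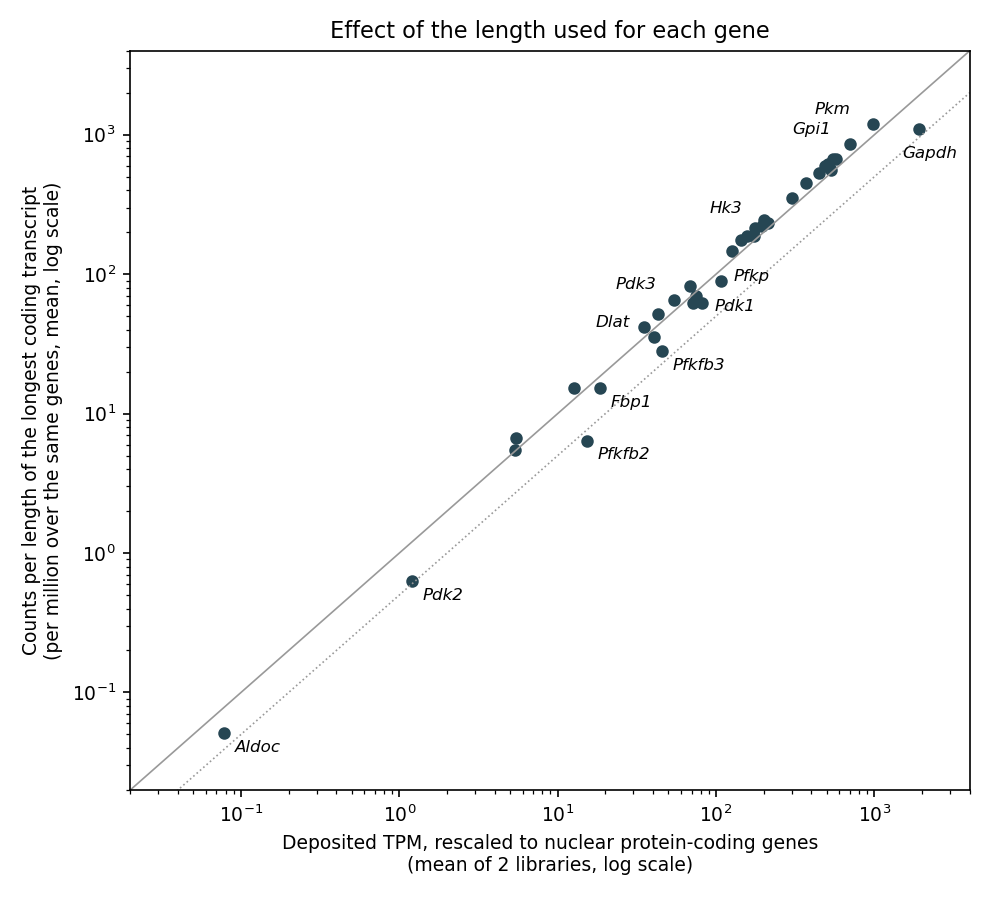
Full-length level (counts per effective length of the longest coding transcript, scaled to the same total over nuclear protein-coding genes) against deposited TPM rescaled to the same genes, mean of 2 libraries, log axes, with 1 point per gene with counts. Points on the solid line have equal values and points on the dotted line a ratio of 0.5; Gapdh, Pfkfb2 and Pdk2 lie near or below the dotted line.

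Lactate dehydrogenase, which reduces pyruvate to lactate, was mostly Ldha, the subunit typical of glycolytic tissue. Ldha was at 99.1 and 126 TPM, and Ldhb, the heart-type subunit, at 8.08 and 9.99. Ldha was higher 12.3-fold in replicate 1 and 12.6-fold in replicate 2, a log2 difference of 3.64 ± 0.028 (SD, n = 2). Ldhc, the testis form, had 21 counts in replicate 1 but 0 in replicate 2.

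The bifunctional PFKFB enzymes set the amount of fructose-2,6-bisphosphate, an activator of phosphofructokinase, and their genes were expressed at low levels. Pfkfb3, the form with the highest kinase activity relative to phosphatase, led at 8.75 and 10.26 TPM. Pfkfb2, the heart form, was at 2.73 and 3.70 TPM, and Pfkfb4, the testis form, at 1.17 and 1.10. Pfkfb1, the liver form and not among the 37, was at 1.77 and 0.68 TPM, so the order below Pfkfb2 was not the same in the libraries. The lead of Pfkfb3 over Pfkfb2 was 1.58 ± 0.15 on the log2 scale of TPM and 2.15 on that of full-length levels. A 768-nt transcript of class nonsense-mediated decay, Pfkfb2-206, held 50.3% and 47.6% of Pfkfb2 TPM. On full-length levels Pfkfb2 was at 5.55 and 7.24 and Pfkfb4 at 7.45 and 5.86, so these did not keep 1 order. Fbp1, the gluconeogenic fructose-1,6-bisphosphatase, was at 3.77 and 3.91 TPM.

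All 7 pentose phosphate genes were at or above 10 TPM in both libraries. In the oxidative branch, G6pdx, the glucose-6-phosphate dehydrogenase that opens the pathway, was at 24.9 and 28.2 TPM. Pgls, the lactonase, was at 36.3 and 36.4 TPM, and Pgd, the second NADPH-producing dehydrogenase, at 31.8 and 33.0. These lie within a narrow band of level. On TPM the order was Pgls, Pgd, G6pdx in both libraries, but on full-length levels Pgls was at 203 and 169.6 and Pgd at 201 and 173, so the order of these depended on the length used. The 3 genes summed to 93.0 and 97.6 TPM.

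The non-oxidative branch summed to 264 and 290.5 TPM, mostly through the transferases that move carbon units between sugar phosphates. Tkt, the transketolase, was at 113 and 117 TPM, and Taldo1, the transaldolase, at 105 and 107. Rpia, the ribose-5-phosphate isomerase, was at 35.7 and 48.7 TPM, and Rpe, the epimerase, was lowest of the branch at 11.2 and 17.7. Tkt and Taldo1 lay above the other 5 pentose phosphate genes in both libraries. The transketolase-like genes Tktl1 and Tktl2 had 0 counts.

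The pyruvate dehydrogenase complex was expressed through all 4 of its catalytic subunit genes. Pdha1, the X-linked E1 alpha subunit, was at 36.9 and 45.2 TPM, Pdhb, the E1 beta subunit, at 26.3 and 34.4, and Dld, the E3 subunit shared with other dehydrogenases, at 32.7 and 41.6. The E2 subunit Dlat was lowest, at 5.97 and 11.4 TPM. Its counts, 2782 and 3120, differed less than its TPM did. The effective length that the files give Dlat was 3231 nt in the first library and 2446 nt in the second, and its transcripts under 1000 nt held 19.2% and 41.5% of its TPM. On full-length levels Dlat was at 32.0 and 38.8, still below Pdhb at 168 and 182.

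The kinases that phosphorylate and inactivate the complex were represented by Pdk1 and Pdk3. Pdk1 was at 15.0 and 19.2 TPM and Pdk3, on the X chromosome, at 9.80 and 13.1. Pdk1 led by 1.53-fold and 1.47-fold on TPM, but on full-length levels the ratio of Pdk1 to Pdk3 was 0.982 and 0.918, so their order depended on the length used. Pdk2 had only 24 and 32 counts, at 0.34 and 0.14 TPM. Its TPM was lower in replicate 2 although its count was higher, and the effective length given in the files was 486 nt and 2033 nt. Pdk4, the form induced by fasting in muscle and liver, had 0 counts, and Pdk1 was at least 168-fold and 143-fold higher, measured against the upper bounds of the deposited intervals of Pdk4.

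A further list of 30 genes of the same pathways was read beside the 37. Of these, 12 were at or above 1 TPM in both libraries, 13 had 0 counts in both, and 5 had counts but missed 1 TPM in at least 1 library. The mitochondrial pyruvate carrier subunits were the highest, Mpc1 at 31.8 and 48.7 TPM and Mpc2 at 21.1 and 26.9. The glucose-6-phosphatase G6pc3, whose loss causes neutropenia, was at 12.1 and 14.4 TPM, and the ADP-dependent glucokinase Adpgk at 8.03 and 10.7. Pdhx, which anchors the E3 subunit to the complex, was at 9.42 and 5.99 TPM, and the endoplasmic reticulum enzyme H6pd at 5.68 and 6.47. The effective length given for Pdhx was 1384 nt and 2237 nt, with 1879 and 1498 counts. On full-length levels Pdhx was at 35.8 and 31.0, so its difference between the libraries depended on the length used. The others lay between 2.25 and 5.65 TPM. These were Pck2, the mitochondrial phosphoenolpyruvate carboxykinase, the pyruvate dehydrogenase phosphatase subunits Pdp1, Pdp2 and Pdpr, the phosphatase Tigar, and Bpgm, the bisphosphoglycerate mutase. Among genes of gluconeogenesis, Pck1, G6pc and Fbp2 had 0 counts and Pcx, the pyruvate carboxylase, was at 0.17 and 0.19 TPM.

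Several glycolytic genes have near-identical copies elsewhere in the genome, and part of the reads was assigned to them. A copy was counted where a transcript outside the locus aligned at 90% identity or more over at least 500 nt and 50% of its length. For Pgk1, the copies held 22.0% and 15.8% of the summed counts of gene and copies, all of it on Pgk1-rs7, a processed pseudogene on chromosome 12 that is 100% identical over 1255 nt. For Eno1 the share was 9.40% and 10.2%, mostly on Eno1b, whose coding alignment differs from Eno1 at 8 of 1302 bases. For Gapdh it was 6.05% and 7.97%, and 82 of 148 copies had counts in either library. Gm10359, identical over 1002 nt, was given 465 counts in replicate 1, the same as each of 2 other copies, and 1657 in replicate 2, more than any other copy. For Pgam1 it was 6.89% and 5.51%, on the processed pseudogene Pgam1-ps2. With the TPM of the copies added, Pgk1 was at 86.5 and 106 TPM, Eno1 at 104 and 107, and Pgam1 at 112 and 132. Whether these copies are transcribed or took reads of the parent gene was not tested, and reads of identical sequence are divided by the estimator, so the levels of these 4 genes are uncertain by those shares. Expected counts were whole numbers in both libraries for 30 of the 37 genes and fractional for Gpi1, Gapdh, Pgk1, Pgam1, Eno1, Ldha and Pdhb.

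**Figure D4:**
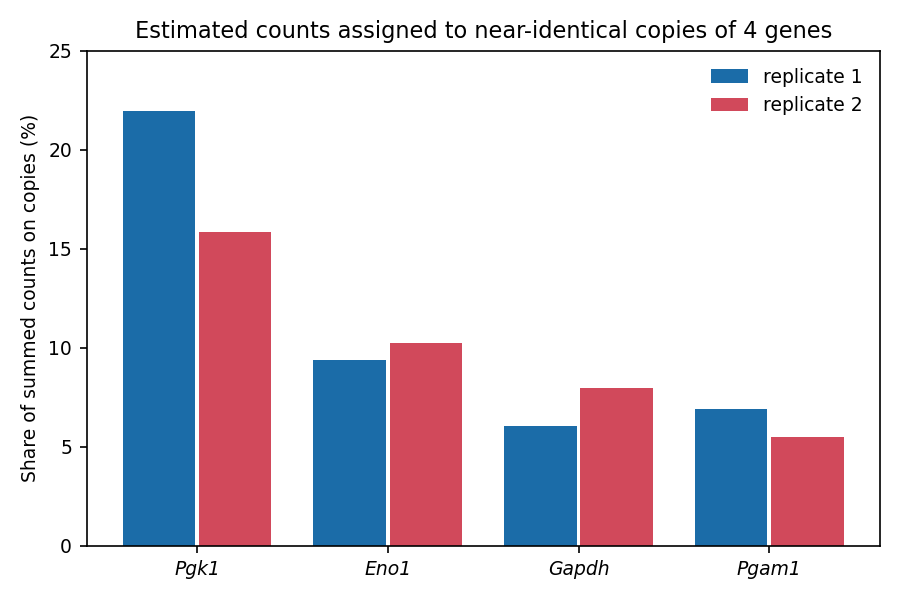
Share of the summed counts of gene and copies that was assigned to the copies (percent, axis from 0), for 4 genes in replicate 1 (blue) and replicate 2 (red); the counts are estimates and carry no interval. The share of Pgk1 is the highest in both libraries, at 22.0% and 15.8%.

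Between the libraries, the pathway genes differed little. The difference is the log2 ratio of counts per 1000000 of the library (CPM) of replicate 2 over replicate 1, and a filter on low counts kept 35 of the 37 genes, all but Aldoc and Eno2. Only Eno3 was more than 1.5-fold higher in replicate 2, at 2.65 CPM in replicate 1 and 4.36 in replicate 2, a log2 ratio of 0.67, where 7.75% of nuclear protein-coding genes passed that fold. Of the muscle markers, Ckm was at 0.25 and 0.60 TPM and the other 4 were at 0 in both, and their part in the Eno3 difference was not tested. None of the 35 was more than 1.5-fold lower, where 8.95% were. Most of the 37 are abundant, and differences are smaller for abundant genes. Among nuclear protein-coding genes averaging 10 CPM or more, 2.55% passed the fold upward and 3.49% downward, and none of the 31 pathway genes at that level did. The median size of the log2 ratio was 0.13 for those 31 and 0.18 for all such genes. These sets share the limit of 10 CPM but were not matched for abundance above it. The libraries also differed in labelled size range, 200 to 712 and 200 to 1000, and in implied mean fragment length, 178 nt and 214 nt. The part of these in the ratios was not tested.

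The 31 ranged from -0.42 for Gpi1, at 827 and 635 CPM, to 0.39 for Pfkfb2, at 10.8 and 14.5 CPM. Pfkm at -0.39, Gapdh at -0.29, Pgls at -0.30 and Taldo1 at -0.28 were also lower in replicate 2. Rpe at 0.38 and Dlat at 0.28 were higher. GC content moved with some of these values, with Pgls at 65.4% GC and Rpe at 39.0%. With the trend on GC removed, Pgls was at 0.05 and Rpe at 0.17, while Gpi1 was still at -0.33. Pkm, at 1233 and 1251 CPM and 57.7% GC, had a log2 ratio of -0.02, and of 0.15 with the trend on GC removed.

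**Figure D5:**
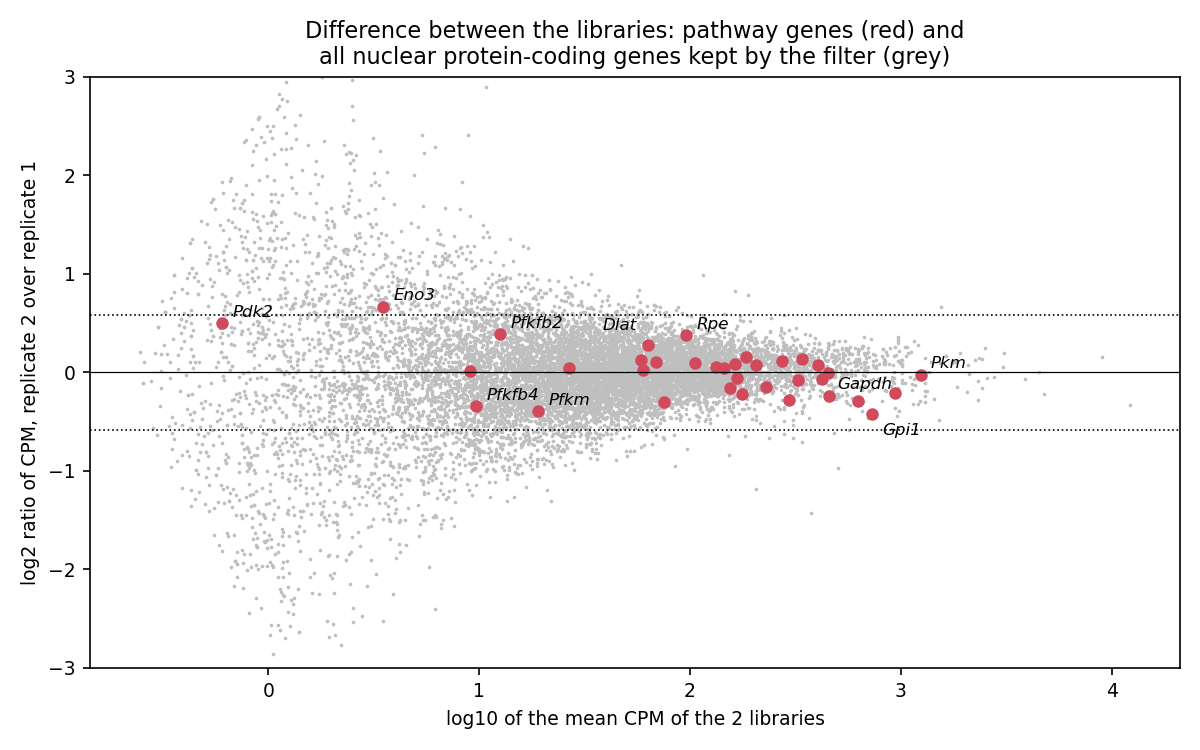
Log2 ratio of CPM between the libraries against the log10 of mean CPM, for the 35 pathway genes kept (red) and all nuclear protein-coding genes kept (grey; values beyond 3 in size are not drawn). Dotted lines mark 1.5-fold; Eno3 is the only red point outside them.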

How the data were processed

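Total RNA of granulocyte-monocyte progenitors was sequenced in 2 libraries of 1 group. Per the labels, a ScriptSeq low-input kit was used after depletion of ribosomal RNA, with a size range of 200 to 712 for replicate 1 and 200 to 1000 for replicate 2, no unit given. The deposited gene and transcript files hold expected counts, estimates that divide shared reads among features. Also deposited are TPM, scaled over all features, FPKM, and posterior mean TPM with bounds of a credibility interval, and the transcript files deposited hold the percent of each gene's level that a transcript makes up. The deposited metadata name assembly mm10 and GENCODE annotation M4. The aligner, the quantifier and the use of strand in counting are not stated in the sources used here. The implied mean fragment length was 178 nt and 214 nt.

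Symbols, coordinates and sequences came from GENCODE M21 on the same assembly. The 37 genes, the 30 further genes and the marker lists were chosen with earlier results of these data known. Some further genes are not reported here by name. All 37 genes are named, as are further genes at or above 1 TPM in both libraries and, for genes whose copies held at least 5% of counts, the copy with most counts. Further genes below 1 TPM and the transcripts singled out were chosen after their values were seen. Levels were compared within a library on TPM. Full-length levels use the longest coding transcript of each gene. Expected counts were rounded for edgeR 4.0.16 in R 4.3.3, used for the filter (filterByExpr, 12855 genes kept) and for scaling by the trimmed mean of M values (factors 0.985 and 1.02), with a prior count of 2. The ratio step was tested on simulated counts. Medians of levels use log2(TPM + 1). Copies were found with BLAST 2.17.0 outside 10000 nt of the gene, and GC trends with lowess in statsmodels 0.14.6. Alternatives were other units, thresholds, pseudocounts, prior counts and lengths, DESeq2 1.42.0 size factors, no filter, copies added, and each library alone. With 1 group of 2 libraries no test was made.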

Additional observations from a re-analysis of the deposited data

How the results depend on the processing

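Isozyme contrasts moved most with the length used, and single genes' ratios between libraries with GC content. On counts not divided by length, the log2 contrasts were 1.29 for Hk3 over Hk1, 1.08 for Hk3 over Hk2, 1.24 for Pfkp over Pfkl, 7.06 for Eno1 over Eno3, 3.92 for Ldha over Ldhb, 2.27 for Pfkfb3 over Pfkfb2 and 1.30 for Pdk1 over Pdk3. On full-length levels, an alternative chosen after seeing the data, they were 1.72, 1.90, 1.08 and, for Pfkp over Pfkm, 2.55, with 3.42 for Ldha over Ldhb and 2.15 for Pfkfb3 over Pfkfb2, and Pdk1 over Pdk3 reversed to -0.075. Posterior mean TPM gave 1.59 for Pfkp over Pfkl and 9.74 for Pkm over Pklr. The median level on log2(value + 1) was 4.78 on TPM, 7.0 rescaled, 6.19 on FPKM, 4.93 without members below 0.1 TPM and 7.20 on full-length levels. The pathway share was 1.02% on counts. The median log2 ratio between libraries, 0.02, was 0.063 on total counts, 0.078 with the GC trend removed and -0.010 on rescaled TPM. Of the 35 genes, 22 moved by more than counting error with the GC trend removed, 15 on total counts and 10 on rescaled TPM. With the GC trend removed 2 genes were higher past 1.5-fold, Eno3 and Pdk2. Without the filter 1 gene was lower, Aldoc, and on rescaled TPM, also added after seeing the data, 1 was, Pdk2, and the single gene higher was Dlat at 0.67 instead of Eno3 at 0.40. The cause of these shifts was not tested. Each library alone gave the same leading isozyme at every step. Depth limits Aldoc, Eno2, Eno3 and Pdk2, whose counts were at most 193. No paired analysis was possible because there is 1 group.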

Other observations

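The share of a gene's TPM that a transcript held was not always alike in the libraries. Hk3-201, the longest coding transcript of Hk3, held 46.9% of Hk3 TPM in replicate 1 and 77.9% in replicate 2, while Hk3-208 held 42.6% and 13.9%. Of Eno3 TPM, Eno3-201 held 1.69% and 99.5%, and Eno3-206 held 71.6% and 0.54%. Their deposited credibility intervals overlapped in both libraries. In replicate 1 they ran from 6.33e-05 to 0.545 TPM for Eno3-201 and from 0.00136 to 0.593 TPM for Eno3-206. In replicate 2 they ran from 0.0382 to 1.30 TPM and from 2.16e-06 to 1.19 TPM. A change between these Eno3 transcripts was therefore not established. Pfkm-201 was the sole Pfkm transcript with TPM in replicate 1 and held 51.9% in replicate 2. For Aldoa, Tkt, Pgd, Gpi1 and Taldo1 the leading transcript held at least 92.1% in both libraries.

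The 37 genes lie on 15 chromosomes. Chromosome 6 holds 6 of them, Hk2, Tpi1, Gapdh, Eno2, Ldhb and Rpia, and 3 of these lie near each other, Eno2 from 124760053 to 124769673 with 0 counts, Tpi1 from 124810586 to 124814296 at 60.5 and 64.7 TPM, and Gapdh from 125161715 to 125166467. The X chromosome holds Pgk1, G6pdx, Pdha1 and Pdk3. The span of G6pdx is shared over 19712 nt with Ikbkg on the other strand, at 4.35 and 13.4 TPM, that of Pfkm over 1156 nt with Senp1, at 13.1 and 14.2 TPM, and that of Pfkp over 748 nt with Pitrm1, at 14.9 and 16.6 TPM. Other overlaps include that of Pfkfb2, itself at 2.73 and 3.70 TPM, over 7032 nt with Yod1 on the other strand, at 1.33 and 1.83 TPM. Pgls shares 3445 nt with Fam129c on the same strand, at 1.21 and 0.16 TPM. The part of overlapping reads in these levels was not tested.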
